A study of Mus musculus with 366 samples.

Results

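The aortas with the highest and the lowest Ifit1, a marker of the interferon response, were compared among female Ath-HMDP mice. The arrays were ranked by Ifit1, an interferon-induced protein that binds viral RNA lacking the marks of host mRNA, and the 40 arrays with the highest Ifit1 (high arrays) were set against the 40 with the lowest (low arrays). The table holds 366 arrays, so that 286 lay in neither group. Every mouse was an F1 female, the offspring of an inbred or recombinant inbred strain and a C57BL/6J parent with the human transgenes ApoE-Leiden and CETP, which raise plasma lipids, and all groups share these transgenes. All were 24 weeks old, having eaten chow for 8 weeks and then a Western diet for 16 weeks, and no labels give a treatment besides the diet. In these groups 1 strain is named for a mutation, BXD24/TyJ-Cep290<rd16>/J, which gave 1 low array (3.78) and no high array. RNA came from the whole aorta, from the arch to the middle of the abdomen, after removal of the surrounding fat, and each mouse had its own array. The panel covered 101 strains, of which 32 gave high arrays, 31 gave low arrays and 7 gave both. Strains are named here by the inbred parent of the F1.

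Interferons are secreted proteins made when a cell senses viral nucleic acid, misplaced DNA or, in lymphocytes, activating signals. Type I interferons bind Ifnar1 and Ifnar2, activate Jak1 and Tyk2, and send a complex that holds Stat2 and Irf9 to a promoter element called the interferon-stimulated response element, whereas interferon gamma acts through Ifngr1 and Ifngr2. The genes switched on by both routes overlap. They encode antiviral effectors, sensors of foreign RNA and DNA, GTPases that attack vacuoles of pathogens, the antigen presentation machinery and chemokines that attract T cells, and in atherosclerotic arteries this response is known mainly from lesion macrophages.

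The response element is shown in the promoters of genes at the centre of the comparison. The motif searched was GAAA, any 2 bases and GAAA again, on either strand, its matches being allowed to overlap, in the 250 bases before the start of each gene. Sequences are from RefSeq (GRCm38.p6, the build of these coordinates) and run 5′ to 3′ on the strand of the gene. The last 170 bases before the start are printed, with matches in capitals (TTTC marks a match on the opposite strand).
Ifit1 (chr19:34640719-34640888, plus strand): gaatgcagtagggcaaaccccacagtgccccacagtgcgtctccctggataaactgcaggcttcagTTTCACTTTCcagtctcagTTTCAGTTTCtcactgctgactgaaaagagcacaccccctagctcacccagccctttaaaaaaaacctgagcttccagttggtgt
Ifit3 (chr19:34583359-34583528, plus strand): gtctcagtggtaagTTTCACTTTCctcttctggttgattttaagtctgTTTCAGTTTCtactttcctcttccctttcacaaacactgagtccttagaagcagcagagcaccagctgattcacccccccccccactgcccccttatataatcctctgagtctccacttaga
Oas1g (chr5:120887614-120887783, minus strand): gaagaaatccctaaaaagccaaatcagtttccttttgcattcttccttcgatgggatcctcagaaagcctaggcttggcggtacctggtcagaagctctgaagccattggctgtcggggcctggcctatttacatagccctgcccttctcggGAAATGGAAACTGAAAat
Gbp3 (chr3:142559874-142560043, plus strand): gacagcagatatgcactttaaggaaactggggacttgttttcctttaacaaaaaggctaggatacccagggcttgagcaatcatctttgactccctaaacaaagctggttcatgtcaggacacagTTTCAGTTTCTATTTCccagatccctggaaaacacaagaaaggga
Igtp (chr11:58199386-58199555, plus strand): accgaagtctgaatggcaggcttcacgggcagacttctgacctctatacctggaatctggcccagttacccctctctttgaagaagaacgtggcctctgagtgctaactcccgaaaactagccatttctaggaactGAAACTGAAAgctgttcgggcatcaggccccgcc
Irf7 (chr7:141266425-141266594, minus strand): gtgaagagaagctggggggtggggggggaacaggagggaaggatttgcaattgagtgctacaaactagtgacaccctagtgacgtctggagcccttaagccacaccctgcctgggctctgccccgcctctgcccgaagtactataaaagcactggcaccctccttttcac
Ifit1, which ranked the arrays, and Ifit3, its neighbour in the family, have 2 separate matches each. In Oas1g and Gbp3 (shown by 1 of its 2 promoters) the 2 matches overlap, in Oas1g within 18 bases of the start. Igtp has 1 match, 34 bases before the start. Irf7 is shown because it followed Ifit1 closely although these letters are not in this window. The motif was present in 2.98% of the 32851 promoters searched and in 3.09% of the 13604 measured genes with a promoter. Among the genes with a promoter in the table it was found for 7 of 8 interferon-induced GTPases, 6 of 21 antiviral effectors, 2 of 16 other interferon-stimulated genes and none of 7 MHC class II genes. It was also found for 8 of 10 interferon ligands and for 1 of 12 genes of MHC class I and peptide loading. Among cell type markers it was found for 3 of 15 of macrophages, 2 of 8 of NK cells and 1 of 6 of B cells. None of 9 neutrophil markers and none of 6 endothelial markers had it. It was found for 1 of 10 smooth muscle and 1 of 7 fibroblast markers. None of 14 NF-kB targets, 10 cholesterol biosynthesis, 10 circadian clock, 9 cell cycle or 9 immediate-early genes had it. The lists named for interferon had shares from 12.5% to 87.5%, above the 3.09% of measured genes. These shares rest on few promoters, overlap those of some cell type markers and were not tested. A match describes letters only, since no binding was measured.

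Ifit1 varied continuously over the panel. On the log2 scale of the normalized array values it ran from 6.55 to 9.12 in the high arrays (median 6.88), from 3.40 to 4.60 in the low arrays (median 4.28) and from 4.69 to 6.55 between them. Nothing separates the groups from their neighbours, because the high array with the least Ifit1 had 6.55 and the next array in the ranking 6.55 as well, while the low array with the most had 4.60 and the array above it 4.69. These values chose the groups and are a description. The highest array, SEA/GnJ replicate 2 (9.12), was followed by CXB7/ByJ replicate 1 (8.34).

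**Figure D1:**
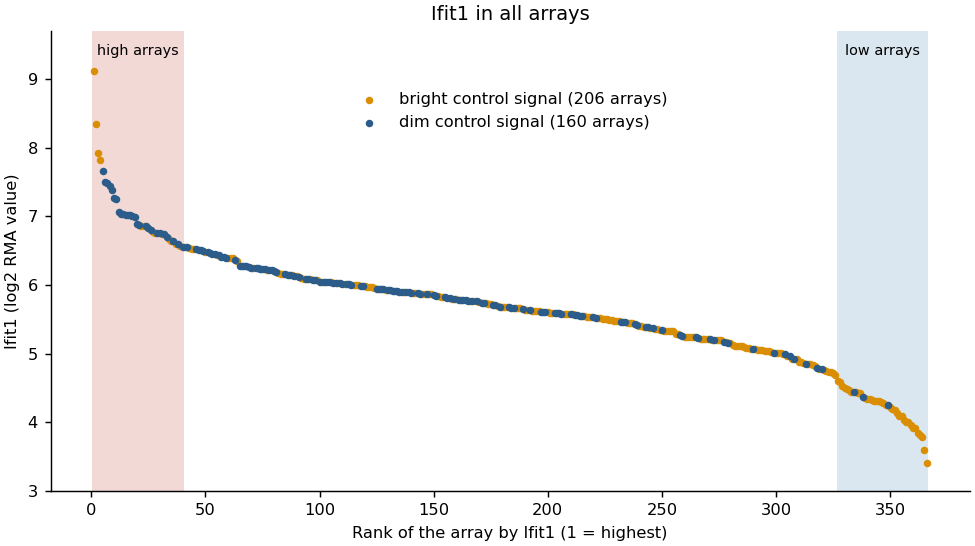
Ifit1 (log2 normalized value, vertical axis) of each of the 366 arrays against its rank (horizontal axis), with the 40 high and the 40 low arrays shaded and points coloured by the signal of the bacterial hybridization controls. The curve has no step at either edge of the groups, and most low arrays belong to the bright set.

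One technical property of the arrays went with the groups and has to be kept beside every result. The mean of the 6 probe sets for bioB, a bacterial transcript added before hybridization to control it, split the panel into a bright set of 206 arrays (7.88 to 8.96) and a dim set of 160 arrays (6.47 to 7.61). The split went with the number in the sample title, which was at most 999 in the bright set and ran from 18 to 1860, with a median of 1267.5, in the dim set. The high arrays held 27 dim and 13 bright arrays, whereas the low arrays held 3 dim and 37 bright ones. Ifit1 averaged 5.39 ± 0.83 (SD, n = 206) in the bright set and 6.00 ± 0.63 (SD, n = 160) in the dim set. The labels do not say what separates the sets, and only 19 strains lay in both, so that set and strain could be told apart only in part. The groups were therefore also formed within each set, from its 20 highest and 20 lowest arrays, and the values obtained that way are called within-set differences. In these rankings Ifit1 itself differed by 2.96 in the bright and by 2.15 in the dim set. Differences of other genes in the 2 sets thus rest on unlike contrasts of Ifit1. The part of the set in the differences between the groups as ranked was not tested beyond these values.

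High arrays were higher in a narrow set of genes. Of 17096 genes other than Ifit1, each represented by whichever of its probe sets had the highest mean, 67 (0.392%) were at least 2-fold higher in the high arrays, a log2 difference of 1 or more, and 0 (0.0%) were at least 2-fold lower. Over 45036 probe sets the numbers were 122 (0.271%) and 3 (0.00666%). The median difference over all genes was 0.00, and 8590 genes (50.2%) were higher at all, which is the background for the counts of higher list members that follow. Of the 67 genes, 32 were on the lists of interferon-induced antiviral effectors, GTPases, chemokines, signalling factors and other interferon-stimulated genes. With ranking within the hybridization control sets, 57 of the 67 again exceeded a log2 difference of 1, and 61 genes (0.357%) did in all, with 1 (0.00585%) lower by as much. For probe sets, ranking within the sets gave 105 (0.233%). As deviations from strain means, which take out what the mice of a strain share, 11 genes (0.0643%) and 15 probe sets (0.0333%) exceeded it. The contrast of Ifit1 itself shrinks in this form, to medians of 0.78 in the high and -0.80 in the low arrays. Each array is also part of the mean taken from it. The same threshold is thus harder to reach, and the lower count is not a measure of what strains share. Of the 49 genes of the 67 with a promoter in the table, 21 carried the motif. Since Ifit1 itself set up the contrast, these counts describe it and no test was applied to them. In a whole aorta, more cells of a responding type and more RNA per cell cannot be told apart.

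A test was possible on arrays that neither group used. Among the arrays in neither group, 275 came from 88 strains with at least 2 such arrays. Each probe set was regressed on Ifit1 with strain as a block (limma, Benjamini-Hochberg adjustment over all 45036 probe sets), so that a slope compares mice of the same F1. A slope of 0.5 means a change of 0.5 on the log2 scale for each log2 unit of Ifit1. At an adjusted p under 0.05, 323 genes (1.89%) rose with Ifit1 and 66 (0.386%) fell, or 563 (1.25%) and 119 (0.264%) of the probe sets. With the hybridization control set as a covariate, the numbers were 125 (0.731%) and 9 (0.0526%) genes, or 190 (0.422%) and 19 (0.0422%) probe sets. Within the bright set 67 genes (0.392%) rose and 2 (0.0117%) fell, and within the dim set 48 (0.281%) rose and 1 (0.00585%) fell. Probe sets that rose and fell were 102 (0.226%) and 5 (0.0111%) in the bright and 71 (0.158%) and 4 (0.00888%) in the dim set. Of the 67 genes higher by 1 or more in the high arrays, 47 rose with Ifit1 in these other arrays and 48 did with the control set as a covariate.

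**Figure D2:**
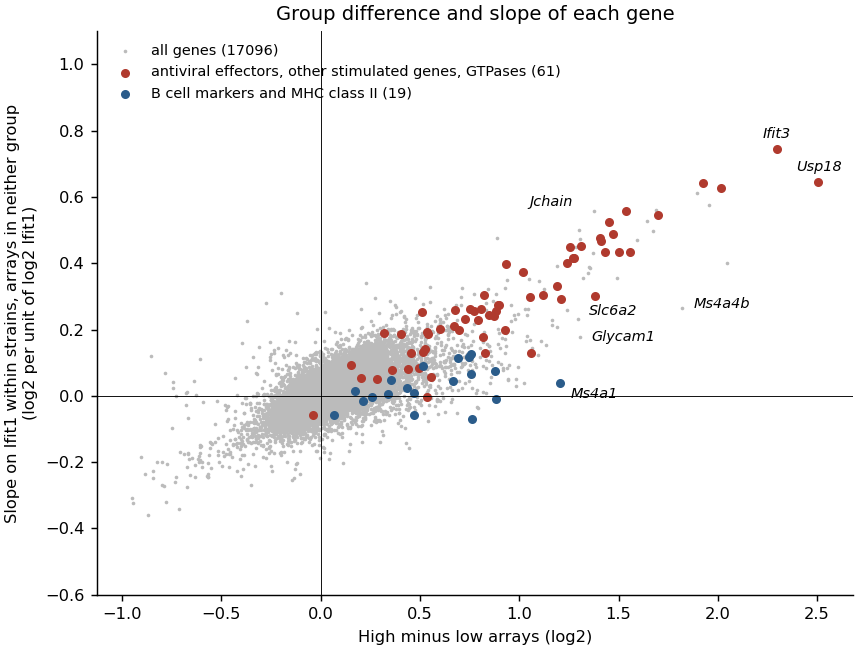
Each of 17096 genes by its difference between high and low arrays (log2, horizontal axis) and its slope on Ifit1 within strains in the arrays in neither group (log2 per log2 unit of Ifit1, vertical axis). Antiviral effectors, other stimulated genes and GTPases (61) spread along a rising band that ends at Ifit3 and Usp18, whereas B cell markers and MHC class II genes (19) lie near a slope of 0.

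Antiviral effectors block steps of viral replication. All 26 measured of 30 listed were higher in the high arrays, by a median of 0.81 on the log2 scale, and 8 of them by 1 or more. In the other arrays 21 of 26 rose with Ifit1 and none fell, 20 rose with the control set as a covariate, and the median slope was 0.22, against 0.00 over all genes. Within the sets alone, 11 rose in the bright and 13 in the dim set. Ifit3 ran from 6.66 to 10.22 in the high arrays (median 7.59) and from 4.60 to 6.24 in the low arrays (median 5.53). Its groups did not overlap, the lowest high array lying above the highest low array. The log2 difference was 2.30 ± 0.12 (SE, n = 40 and 40), the within-set difference was 2.24 and that of deviations from strain means was 1.37. Its slope in the other arrays was 0.75 ± 0.039 (SE, limma adjusted p = 4.51e-41).

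Oas1g, of the family of 2'-5'-oligoadenylate synthetases that switch on an RNase when they meet double-stranded RNA, ran from 6.27 to 8.47 (median 7.12) in the high arrays and from 4.53 to 6.03 (median 5.11) in the low arrays. Here too the groups were apart. It differed by 2.02 ± 0.09 (SE) on the log2 scale and its slope was 0.63 ± 0.054 (limma adjusted p = 5.31e-20). Oasl2, a relative that carries ubiquitin-like domains, ran from 4.18 to 6.38 in the high and from 2.75 to 4.08 in the low arrays, with a slope of 0.54 ± 0.043 (limma adjusted p = 1e-22). Trim30a ran from 6.48 to 9.50 against 4.98 to 6.45. Oas2 (median 5.53 in the high and 4.05 in the low arrays), Ifit2 (log2 difference 1.27), Cmpk2 (1.27) and Rsad2 (1.02), the enzyme viperin that makes a chain-terminating nucleotide, were higher by more than 1 as well, with slopes that passed. Mx1, a dynamin-like GTPase, was different in shape: the median was 3.12 in the high and 2.57 in the low arrays, but single high arrays reached 6.59. Its slope passed the test (0.13 ± 0.035, limma adjusted p = 0.0275) but not with the control set as a covariate (adjusted p = 0.109). The 5 members whose slopes did not pass were Oas3, Eif2ak2, Ifi27l2a, Ifitm1 and Isg20, with log2 differences of 0.20 to 0.56 between the groups.

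**Figure D3:**
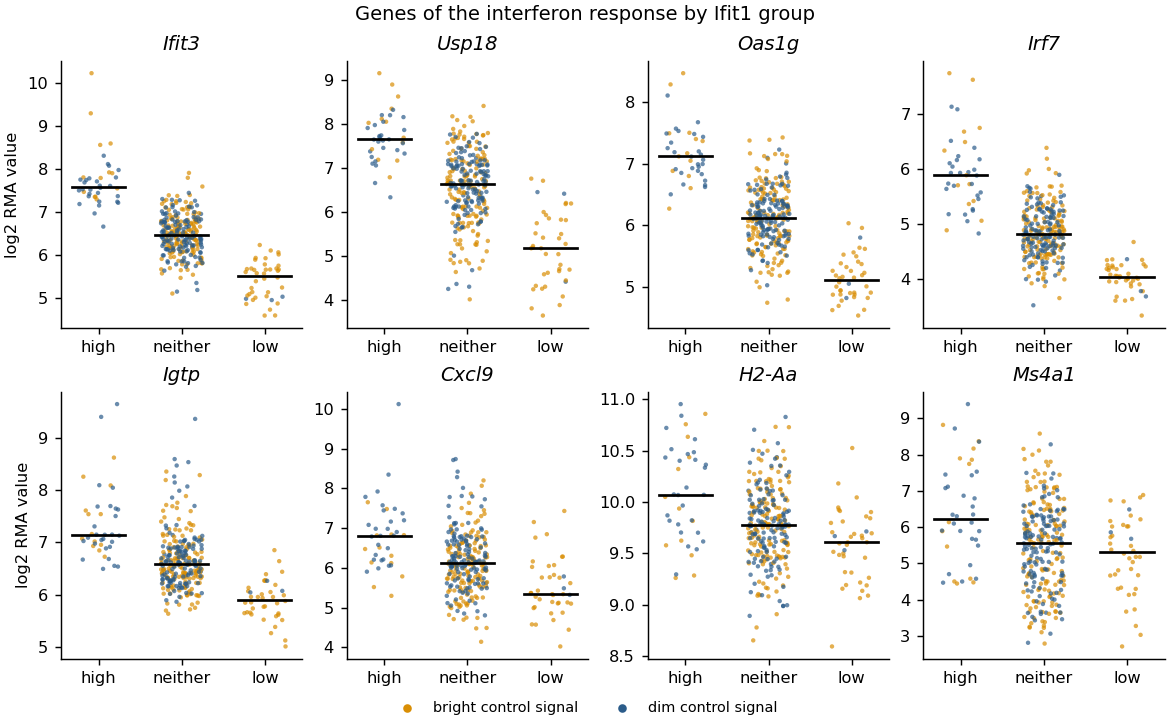
Log2 normalized values of 8 genes (vertical axes) in the 40 high arrays, the 286 arrays in neither group and the 40 low arrays, 1 point per array coloured by hybridization control set, with the median as a line. The groups are apart for Ifit3, Oas1g and Irf7, nearly so for Usp18, and overlap for Igtp, Cxcl9, H2-Aa and Ms4a1.

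The other interferon-stimulated genes regulate or accompany the response. All 24 measured of 26 listed were higher in the high arrays (median log2 difference 0.88, 9 of them by 1 or more), 19 rose with Ifit1 in the other arrays and 18 did with the control set as a covariate (12 within the bright and 10 within the dim set). Usp18 had the largest difference of all genes. The protein removes the ubiquitin-like Isg15 from its targets and dampens the type I receptor. It ran from 6.33 to 9.15 (median 7.65) in the high arrays and from 3.64 to 6.75 (median 5.17) in the low ones, and 38 of the 40 high arrays lay above every low array. The log2 difference was 2.51 ± 0.16 (SE), with 2.98 in the bright set and 1.73 in the dim set when each was ranked alone (Ifit1 itself 2.96 and 2.15). Its slope was 0.64 ± 0.084 (limma adjusted p = 8.53e-10), and within the dim set alone it did not pass (adjusted p = 0.114). Rtp4, a chaperone of receptors that interferon induces strongly, ran from 8.15 to 10.35 against 6.13 to 8.02, with groups apart and a slope of 0.64 ± 0.049 (limma adjusted p = 1.63e-24). Members with smaller changes were Parp14 (log2 difference 1.26), Lgals3bp (1.24), Slfn8 (1.19) and Ly6e (1.12), whose slopes all passed. Ms4a4c was higher by 1.06 but had a slope of 0.13 (limma adjusted p = 0.313), and Ch25h, the enzyme that makes 25-hydroxycholesterol, differed by 0.15.

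How broadly each array took part was counted over the 50 genes of these 2 lists. A high array had a median of 45 of the 50 above the median of the panel (range 25 to 50), and a low array had a median of 7.5 (range 2 to 16). Arrays in neither group spanned 4 to 48. At least 40 of the genes were above the median in 31 of the 40 high arrays and in 26 of the 286 arrays in neither group. Ranking by Ifit1 alone thus did not gather every array with a broad response. Of the 40 high arrays, 39 had more than 25 of the genes above the median, and the array with 25 was BXD20/TyJ replicate 2, which ranked 39 by Ifit1.

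Among signalling proteins and their transcription factors, a few members stood out. Of 19 measured members, 17 were higher in the high arrays, with a median log2 difference of 0.19, and 4 of them by 1 or more (Irf7, Stat2, Irf9 and Irf8). In the test 4 rose with Ifit1 in the other arrays, with or without the control set as a covariate. Those that rose were Irf7, Stat2, Irf9 and Irf1, whereas Irf8, a factor of myeloid and B cells, differed by 1.06 and had a slope of 0.15 (limma adjusted p = 0.324). Within the sets alone, 1 rose in the bright and 3 in the dim set. Irf7, the transcription factor that amplifies type I interferon production, ran from 4.83 to 7.74 (median 5.89) in the high arrays and from 3.34 to 4.68 (median 4.05) in the low arrays without overlap. Its log2 difference was 1.89 ± 0.11 (SE), its within-set difference 1.88 and its slope 0.61 ± 0.051 (limma adjusted p = 6.39e-21). Stat2 and Irf9, partners in the complex that binds the response element, had medians of 4.49 and 6.56 in the high against 3.03 and 5.44 in the low arrays, and slopes of 0.39 and 0.35 (limma adjusted p = 2.7e-08 and 3.7e-08). Within the bright set alone, neither passed (adjusted p = 0.369 and 0.324). Irf1, which mediates part of the interferon gamma response, differed by 0.41 (slope 0.17, limma adjusted p = 0.00221). The receptor chains differed by 0.05 (Ifnar1), 0.03 (Ifnar2), -0.19 (Ifngr1) and 0.02 (Ifngr2), and the kinases Jak1 and Jak2 by 0.12 and 0.18. No slope of these passed.

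The ligand transcripts were read too low to be compared. The mean of the 11 ligands had a panel median of 2.55, whereas the median of all probe sets on an array was at least 3.17, so that no conclusion about interferon transcripts can be drawn. The 11 measured of 18 listed had differences from -0.15 to 0.07 on the log2 scale. Ifnb1 ran from 2.26 to 2.69 in the high arrays and from 2.21 to 2.80 in the low arrays, and Ifng from 2.30 to 3.15 against 2.24 to 2.87. No ligand rose with Ifit1 in the other arrays. Ifna5 fell slightly (slope -0.13 ± 0.030, limma adjusted p = 0.007), and with the control set as a covariate it did not pass (adjusted p = 0.0887).

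Among 17 measured nucleic acid sensors and adaptors of 18 listed, 15 were higher in the high arrays and 7 rose with Ifit1, with or without the control set as a covariate (6 within the bright and 3 within the dim set). Those that rose detect nucleic acid or degrade it: Ddx58 (RIG-I) and Ifih1 (MDA5), which sense RNA in the cytosol, Dhx58, Tlr3, Zbp1, Ifi203 and the DNase Trex1. Ddx58 ran from 6.10 to 7.58 in the high and from 5.06 to 5.92 in the low arrays without overlap (slope 0.39 ± 0.037, limma adjusted p = 7.43e-17). Zbp1, a sensor of Z-form nucleic acid, had a median of 4.90 against 3.40 and the largest log2 difference of the list, 1.69 ± 0.14 (SE). The adaptors and kinases that pass the signal on changed less, with log2 differences of -0.00 for Mavs, 0.05 for Ticam1, 0.06 for Tbk1 and 0.42 for Sting1, and none of their slopes passed.

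Over the whole table, 8 probe sets (0.0178%) had groups that did not overlap, all higher in the high arrays. They belonged to 7 genes, Ifit3, Oas1g, Rtp4, Irf7, Oasl2, Trim30a (2 probe sets) and Ddx58, and among the probe sets with the highest mean of each gene they were 7 (0.0409%). Other probe sets of Ddx58, with lower means, differed by 0.84 and 0.06, and another of Rtp4 by 0.50, with groups that overlapped.

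The interferon-induced GTPases had the highest median difference of the lists, 1.41 on the log2 scale. Of 11 measured of 15 listed, 8 were higher by 1 or more, 9 rose with Ifit1 in the other arrays and 9 did with the control set as a covariate. Within the sets alone, 4 rose in the bright and 7 in the dim set. The median difference was 1.39 in the bright and 0.93 in the dim set when each was ranked alone, where Ifit1 differed by 2.96 and 2.15. The median slope was 0.34 in the bright and 0.48 in the dim set. Iigp1, an immunity-related GTPase that disrupts the vacuoles of intracellular parasites, ran from 8.13 to 12.03 (median 8.97) in the high and from 6.63 to 8.53 (median 7.58) in the low arrays, and 34 of 40 high arrays lay above every low array. Igtp (Irgm3) differed by 1.47 ± 0.12 (SE) and had a slope of 0.49 ± 0.078 (limma adjusted p = 1.27e-06). Ifi47 differed by 1.56, Irgm2 by 1.41 and Tgtp1 by 1.41. Among the guanylate-binding proteins, Gbp3 ran from 7.78 to 10.13 against 6.61 to 8.38 (slope 0.52 ± 0.055, limma adjusted p = 1.23e-14), and Gbp7 differed by 1.31. Gbp4 and Gbp8 did not pass, with log2 differences of -0.04 and 0.53. Gbp10, which was not on the list, differed by 1.29 (slope 0.45 ± 0.057, limma adjusted p = 3.43e-10).

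**Figure D4:**
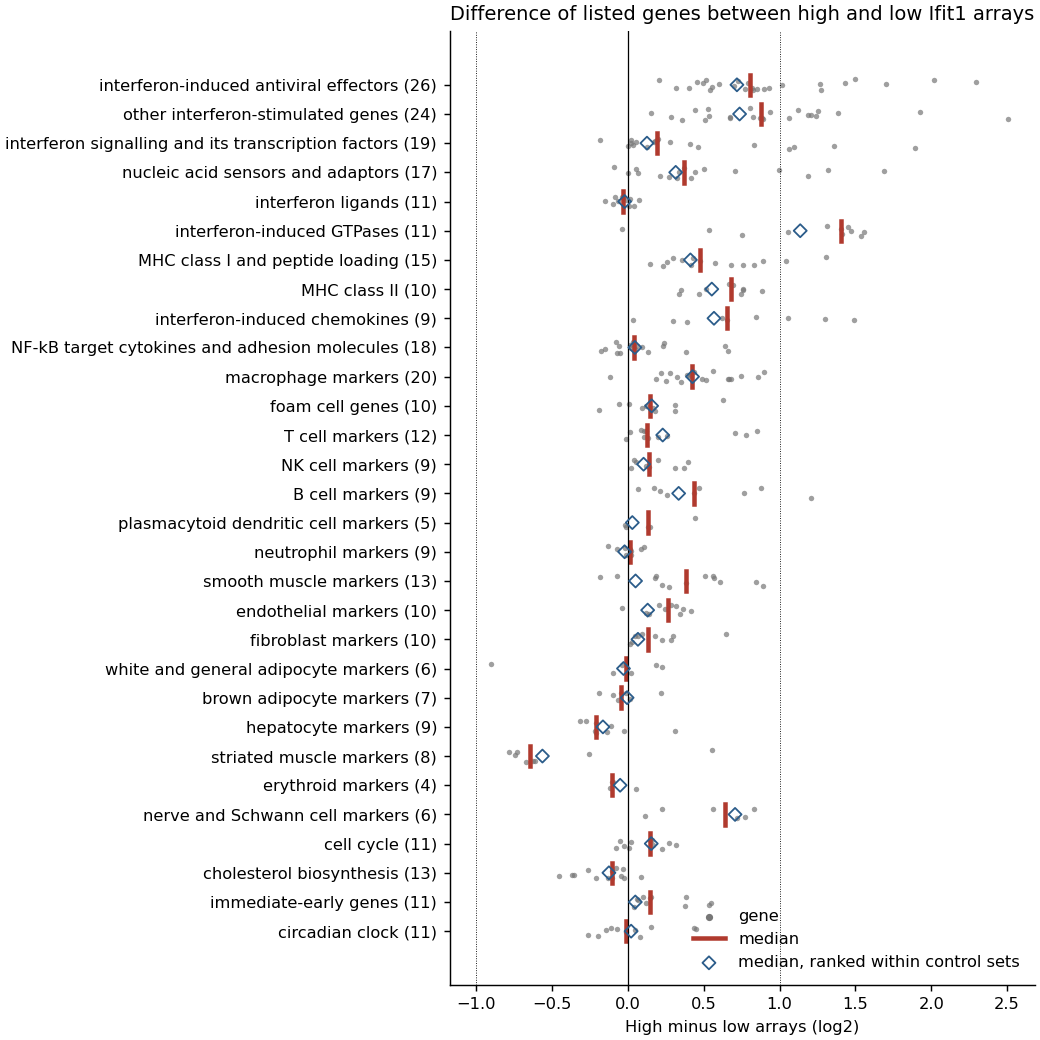
Log2 difference between high and low arrays (horizontal axis) of each measured gene of 30 lists (points), with the median of the list as a bar and the median after ranking within the hybridization control sets as a diamond. The GTPases reach a median of 1.41, the ligands sit at -0.03, and the diamond of the smooth muscle markers falls to 0.05 from a median of 0.38.

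Antigen presentation genes were higher in the high arrays, but only those of class I had slopes that passed. Class I molecules present peptides from inside the cell, and all 15 measured of 22 listed were higher in the high arrays (median log2 difference 0.48). In the other arrays 8 rose with Ifit1, and 10 did with the control set as a covariate. Nlrc5, the transactivator of class I genes, differed by 1.31 ± 0.14 (SE, slope 0.47 ± 0.068, limma adjusted p = 3.37e-08). H2-T23 differed by 1.04, and the immunoproteasome subunits Psmb8, Psmb9 and Psmb10, which cut peptides for loading, by 0.89, 0.83 and 0.43, all with slopes that passed. Within the dim set alone 1 of the 15 passed and within the bright set 8. For the same groups within the dim set, which has 3 low arrays, H2-K1 was lower in the high arrays (-0.77, against 0.48 overall).

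Class II molecules present extracellular antigen on macrophages, dendritic cells and B cells. All 10 were higher in the high arrays, by a median of 0.68, but none rose with Ifit1 in the other arrays, where the median slope was 0.06. Within the sets alone the median slope was 0.18 in the bright and 0.01 in the dim set, and none rose in either. For class I these medians were 0.21 and 0.17. H2-Aa had a median of 10.07 in the high and 9.61 in the low arrays with wide overlap, and a slope of 0.09 (limma adjusted p = 0.4). Cd74, the invariant chain, differed by 0.76 ± 0.11 (SE) and had a slope of 0.13 (limma adjusted p = 0.307). Whether slopes differ between class I and class II was not tested.

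Of the 9 interferon-induced chemokines, all were higher in the high arrays, and 3 rose with Ifit1. With the control set as a covariate 2 rose, within the bright set 1 and within the dim set 0. Cxcl9, a T cell attractant induced by interferon gamma, ran from 5.29 to 10.12 (median 6.81) in the high and from 4.02 to 7.43 (median 5.35) in the low arrays, and 9 high arrays exceeded every low array. It had a slope of 0.50 ± 0.102 (limma adjusted p = 0.000781). Ccl12 and Ccl7 were the others, and Ccl7 did not pass with the control set as a covariate (adjusted p = 0.0587). Cxcl10 (log2 difference 0.65) and Ccl5 (1.49) had slopes that did not pass (limma adjusted p = 0.225 and 0.0913), and Cxcl11 differed by 0.03. Of 18 targets of NF-kB, the factor behind the classical inflammatory cytokines, the median difference was 0.04. Tnfaip3 and Icam1 rose with Ifit1 (limma adjusted p = 0.0155 and 0.0387), but with the control set as a covariate neither passed (adjusted p = 0.261 and 0.175). Il6 differed by -0.07, Il1b by 0.03 and Tnf by 0.06.

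Outside the lists, several of the genes with the highest differences and slopes belong to families known to respond to interferon. Ifi213 and Ifi209, of the family of DNA-binding p200 proteins, differed by 1.96 and 2.05 and had slopes of 0.58 ± 0.070 and 0.40 ± 0.106 (limma adjusted p = 4.29e-11 and 0.0239). Another probe set of Ifi209, with a lower mean (3.29), differed by 1.41, and its slope of 0.27 did not pass (limma adjusted p = 0.113). Gm9706 (log2 difference 1.64, slope 0.53 ± 0.046), Slfn4 (1.67), Csprs (1.59), Phf11a (1.37), Trim30d (1.35), Trim34a (1.35), Apol9a (1.05) and Rnf213 (1.00), a large ubiquitin ligase linked to vascular disease, all had slopes that passed with and without the control set as a covariate. Within the dim set alone Ifi209, Slfn4 and Apol9a did not pass (adjusted p = 0.929, 0.917 and 0.0781), and Slfn4 did not within the bright set either (adjusted p = 0.0723). Aplnr, the apelin receptor of endothelial cells, is not known from this response. It had a median of 6.45 in the high and 5.47 in the low arrays, and a slope of 0.48 ± 0.109 (limma adjusted p = 0.00495), which passed with the control set as a covariate (adjusted p = 0.0372). Within the bright set and within the dim set alone it did not pass (adjusted p = 0.73 and 0.867).

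The genes that fell with Ifit1 did so by little. The 12 lowest slopes that passed ran from -0.27 (Sycp3) to -0.14 (Lsm1), and among them were Mlx, Ranbp9, Mthfs and Mrps22. Sycp3, a protein of the meiotic chromosome axis, had a median of 6.49 in the high and 7.31 in the low arrays, but its within-set difference was -0.23 and its adjusted p was 0.357 with the control set as a covariate. None of the 12 passed with that covariate.

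Among the 12 genes outside the lists with the lowest differences were Krt13, Krt4 and Lor, proteins of stratified epithelium. They differed by -0.94, -0.87 and -0.89, although their medians were 2.57 against 2.69, 2.60 against 2.65 and 2.41 against 2.55. The low arrays reached 12.51 for Krt13 and the high arrays 6.44. No slope of these genes passed. Cxcl14, a chemokine, had medians of 5.77 and 6.72 and a log2 difference of -0.82 ± 0.40 (SE). Its within-set difference was -1.21, but that of deviations from strain means was -0.31. Its slope was -0.20 and did not pass (limma adjusted p = 0.412). Myh2, a myosin of fast muscle, had medians of 5.90 and 6.90. It ran from 2.22 to 12.71 in the high and from 3.27 to 12.12 in the low arrays. Its log2 difference was -0.86 ± 0.69 (SE), and its slope of 0.12 did not pass (limma adjusted p = 0.953). Among list members, Lep, the adipocyte hormone leptin, differed by -0.90 ± 0.26 (SE), and 7 of 8 striated muscle markers were lower (median -0.65), with no slope that passed.

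Several cell types moved with the groups, and their part in the interferon genes was not tested beyond the values given here. Of 20 macrophage markers 19 were higher in the high arrays, by a median of 0.42, and the sum of their linear values ran from 2449 to 7312 (median 4000) in the high and from 1844 to 5564 (median 3015) in the low arrays. Cd68 had a median of 5.63 against 4.85. In the other arrays, Fcgr1, an activating receptor for IgG that interferon gamma is known to induce, was the 1 marker of the 20 whose slope passed (0.19 ± 0.042, limma adjusted p = 0.00219). With the mean of the macrophage markers as a covariate, 21 of 26 antiviral effectors, 19 of 24 other stimulated genes and 9 of 11 GTPases rose, the same counts as without it.

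Lymphoid genes were carried by some of the high arrays. All 9 B cell markers were higher in the high arrays (median 0.43), with a summed linear level of 119 to 2336 (median 251) in the high and 102 to 354 (median 198) in the low arrays. Ms4a1 (CD20) ran from 4.45 to 9.40 against 2.71 to 6.89, and 14 high arrays exceeded every low array. Its slope in the other arrays was 0.04 (limma adjusted p = 0.956). By the mean of the B cell markers, 13 high arrays and 0 low arrays were in the top 10% of the panel. Glycam1, a mucin of the high endothelial venules of lymph nodes, had nearly the same median in both groups (2.76 and 2.55) but reached 10.72 in the high arrays. Jchain, the joining chain of secreted antibodies, Ms4a4b, a membrane protein of T cells, and Cd3d, a chain of the T cell receptor complex, had log2 differences of 1.38, 1.82 and 0.78 and slopes that did not pass. The array that ranked 2, CXB7/ByJ replicate 1, had 8.06 for Glycam1 and the array that ranked 5, AKR/J replicate 1, had 9.11, whereas the array that ranked 1 had 2.52.

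Without these 13 arrays, a comparison added after the data were seen, 84 of 45036 probe sets were higher by 1 or more and 7 were lower by as much. Of 17096 genes, 57 were higher by 1 or more. The median difference fell from 0.43 to 0.07 for the B cell markers and from 0.68 to 0.37 for MHC class II. The 13 arrays were chosen by the B cell markers and all were high arrays. The fall of these markers was therefore fixed by the choice, and that of class II, which B cells also carry, is only a description. The median was 1.37 for the GTPases, 0.70 for the antiviral effectors and 0.80 for the other stimulated genes. Ifit3 differed by 2.26, Usp18 by 2.46 and Glycam1 by 0.07. Of the 67 genes higher by 1 or more, 45 stayed at or above 1, and of the 20 among them whose slopes had not passed, 3 did.

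The 3 were Slc6a2, Npy and Syt1, genes of neurons (named after their values were seen). Slc6a2, the noradrenaline transporter, ran from 2.98 to 10.30 (median 6.08) in the high and from 2.56 to 10.45 (median 3.73) in the low arrays, a difference of 1.30 ± 0.52 (SE) with overlap over nearly the whole range. Th, the enzyme that starts catecholamine synthesis, differed by 0.77, and all 6 nerve and Schwann cell markers were higher (median 0.64). Of these 6, Mbp rose with Ifit1 in the other arrays (limma adjusted p = 0.0466), but not with the control set as a covariate (adjusted p = 0.227).

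The vessel wall itself was present in both groups. Acta2, smooth muscle actin, had a median of 12.12 in the high and 11.62 in the low arrays, and the lowest array of the low group still had 8.37. Of 13 smooth muscle markers 11 were higher (median 0.38), but after ranking within the control sets the median was 0.05, and no slope passed. Neutrophil (0.01), brown adipocyte (-0.05), cholesterol biosynthesis (-0.10) and circadian clock genes (-0.01) had medians of small size, with 5 of 9, 2 of 7, 1 of 13 and 5 of 11 members higher. Small medians that leaned one way were those of NK cell (0.14, 9 of 9 higher), fibroblast (0.13, 10 of 10), T cell (0.13, 11 of 12), foam cell (0.14, 8 of 10) and cell cycle genes (0.15, 8 of 11). The mean of the NK cell (2.89), T cell (2.97), cell cycle (2.96) and neutrophil genes (3.08) had panel medians under 3.17, the lowest array median. These lists were thus read low, and their median differences say little. By that mean, 14 high and 1 low arrays were in the top 10% for NK cells, 14 and 3 for T cells. For cell cycle genes the counts were 12 and 5, and for neutrophil markers 6 and 7. The medians were 0.13 for plasmacytoid dendritic cell, -0.01 for white adipocyte and -0.10 for erythroid markers. No slope in these lists passed. The medians were 0.26 for endothelial and -0.21 for hepatocyte markers. Of the endothelial markers Tie1 alone had a slope that passed, but not with the control set as a covariate or within either set alone. All 11 immediate-early genes were higher in the high arrays (median 0.15), whereas as deviations from strain means only 3 of the 11 were.

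Part of the variance of Ifit1 lay among strains. Over 360 arrays of 95 strains with at least 2 arrays, the share was 23.5% (intraclass correlation, limma F test, adjusted p = 1.25e-06). That is no special property, as 77.0% of all probe sets passed this test and the median intraclass correlation was 17.9%. Within the bright set the figure was 13.96% (adjusted p = 0.0443) and within the dim set 29.4% (adjusted p = 0.000137). The highest strain means were 6.77 ± 1.14 (SD, n = 4) in CXB7/ByJ, 6.74 ± 0.42 (n = 8) in C3H/HeJ and 6.74 ± 0.74 (n = 4) in AKR/J, and these did not differ beyond their spread. C3H/HeJ gave 4 high arrays of 8. The lowest means of strains with 3 or more arrays were 4.52 ± 0.56 (n = 3) in AXB6/PgnJ, 4.60 ± 0.60 (n = 3) in NON/ShiLtJ and 4.63 ± 0.34 (n = 4) in BXD75/RwwJ, which gave 3 low arrays, and these overlapped as well. The SD within strains had a median of 0.61, and the SD of the strain means was 0.54. Of the high arrays, 39 of 40 lay above the mean of their own strain. Of the 39 low arrays whose strain had another array, 38 lay below that mean. Choosing the extremes of Ifit1 largely fixes both counts.

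In 7 strains a high and a low array came from mice of the same F1. SEA/GnJ had the widest range of the panel, with 9.12 in replicate 2 and 4.31 in replicate 4. The same arrays had 10.22 and 5.57 for Ifit3 and 8.89 and 4.79 for Usp18. In FVB/NJ, where the high and the low array were both dim, Ifit3 was 7.15 and 4.99 and Usp18 7.37 and 4.41. BXD20/TyJ was the weakest pair, with an Ifit1 difference of 2.23 but 1.33 for Ifit3 and 0.43 for Usp18. Across the 7 strains the high arrays were higher for Ifit3 (median log2 difference 2.16), Usp18 (2.09), Oas1g (1.97), Rtp4 (1.89) and Irf7 (1.81) in 7 of 7. In 5 of the 7 strains the arrays came from the same control set. These arrays were chosen by Ifit1, so the values are a description.

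**Figure D5:**
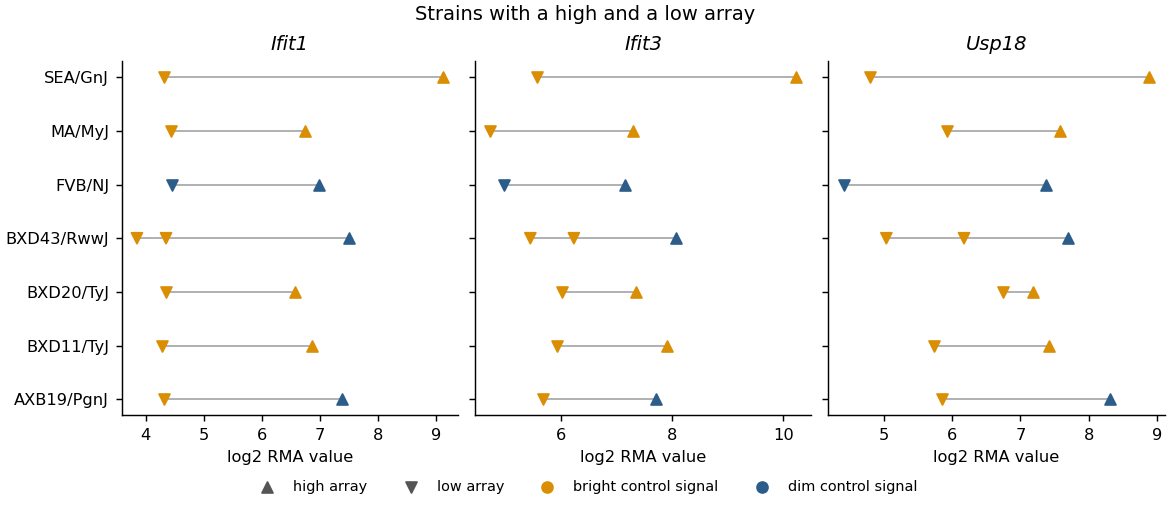
Log2 normalized values of Ifit1, Ifit3 and Usp18 (horizontal axes) in the high (upward triangle) and low (downward triangle) arrays of the 7 strains that had both, coloured by hybridization control set. High arrays lie to the right of low arrays for all genes in every strain, closest for Usp18 in BXD20/TyJ.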

How the data were processed

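Total RNA of 366 aortas was hybridized to Affymetrix arrays, 1 per mouse. The deposited values are log2 intensities that the authors made with GCOS and RMA (versions and genome build not given in the sources used here). The array is called HT_MG-430A in the labels, whereas HT-MG_430 PM is its name in the study's methods. Strain was taken from the labels. Nothing in the labels gives batches, and replicate numbers follow accession order.

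Control probe sets (104) and Ifit1 (1 probe set) were left out, which left 45036. Of the non-control probe sets, 28898 had 1 gene symbol, 551 several and 15588 none. Where a gene had several probe sets, that with the highest mean stood for it. Groups were chosen by Ifit1, so their difference is given with limma's SE and no test. Slopes and strain effects were tested with limma 3.58.1 (R 4.3.3) with Benjamini-Hochberg adjustment at 0.05. Both fits were checked on data simulated with independent noise for each probe set. That noise held neither correlation between genes nor a difference between control sets, so the check does not vouch for the counts of calls. Tool names for the deposited values are from the submitters' processing notes. The hybridization control sets were split at the widest gap (0.27) of the bioB mean. Tables and figures were made with Python 3.11.15.

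The groups, the 30 gene lists (353 of 409 genes measured) and the tests were chosen with earlier results of these data known. Named genes are list members and, outside the lists, the 12 highest and 12 lowest differences and slopes. Glycam1, Jchain, Ms4a4b and Slc6a2 fall under that rule. Alternatives were other group sizes and rankings, deviations from strain means, other models, covariates and probe sets, and leaving out strains. Those by control set and the one without B cell rich arrays were added after the data were seen. The number of arrays limits the precision.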

Additional observations from a re-analysis of the deposited data

Results flagged for a closer look

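In 5 strains with 4 arrays, 1 array stood apart from the others of its strain in Ifit1 (log2). The highest array stood apart in BXD9/TyJ replicate 1 (7.93, with the next at 5.53), CXB6/ByJ replicate 3 (7.02, next 5.91), CXB13/HiAJ replicate 2 (6.77, next 5.57) and BXH8/TyJ replicate 2 (6.74, next 6.47), all of them high arrays. The lowest stood apart in RIIIS/J replicate 2 (4.45, next 5.69), a low array. They are 5 of 75 strains tested with 4 to 10 arrays (6.67%), and chance sets such an array apart in about 1 in 20.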

How the results depend on the processing

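The groups rest on a gradient, so counts depend on where it is divided and on the strain term. The number of probe sets higher by 1 or more (122) was 237 with 20 arrays in each group, 78 with 60, 35 when ranked by deviation from the strain mean, 69 when ranked by Usp18, 15 as deviations and 61 when ranked in the dim set. The number lower by 1 or more (3) was 24 with 20 arrays, 35 when ranked by deviation, 13 from medians, 0 as deviations, 18 and 9 when ranked in the bright and dim sets, 8 and 91 for the same groups within the bright and dim sets (the dim set has 3 low arrays) and 7 without arrays rich in B cell markers. Leave-one-out over strains gave 100 to 135 higher and 1 to 8 lower. The lower count was 1 without BUB/BnJ, BXD14/TyJ, C58/J, KK/HlJ or RIIIS/J, and 5 to 8 without AXB15/PgnJ, AXB19/PgnJ, AXB6/PgnJ, AXB8/PgnJ, BXA7/PgnJ, BXD43/RwwJ, BXD75/RwwJ, CXB8/HiAJ or SWR/J.

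Probe sets that rose with Ifit1 (563) were 6584 with no strain term, 5450 over all arrays, 307 on ranks, 279 with array weights, 190 with the control set as a covariate, 102 in the bright and 71 in the dim set. Those that fell (119) were 4561, 3048, 43, 27, 19, 5 and 4 in the same order, 79 in strains with at least 3 arrays, 214 with the macrophage score and 210 with the hepatocyte, adipocyte and striated muscle scores. Of the 563, 184 passed with the control set as a covariate. Leave-one-out gave 332 to 848 rising, with 332 without BXA2/PgnJ, 336 without BXD73/RwwJ, 356 without LP/J and 848 without CBA/J. It gave 39 to 219 falling, with 39 without BXD73/RwwJ, 47 without BXA2/PgnJ, 50 without LP/J, 63 without AXB19b/PgnJ, 180 without C57BLKS/J, 188 without C58/J, 204 without CXB3/ByJ and 219 without CBA/J. The cause was not tested. For the same groups within the dim set, with its 3 low arrays, Jchain turned to -0.19, H2-K1 to -0.77 and Aplnr to -0.04. The strain effect on Ifit1 kept its side of the threshold in each alternative. No paired analysis was possible because replicate numbers follow accession order and pair no mice. Strain links arrays, and it entered as the block of the slopes and as deviations.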
